A study of Mus musculus with 9 samples.

Results

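The arrays described here are the 2 of 9 in a study of the fetal mouse thymus on which Prss16, a serine protease gene of cortical thymic epithelium, read under 6 on the log2 scale. They are wild type replicate 1 and Foxn1933/1089 replicate 2, and they are called the Prss16-low arrays below. Prss16 was at 4.24 and 4.45 on them, and the lowest value on the other 7 arrays was 13.87, so no array lay near the threshold. All samples were thymic lobes of C57BL/6 embryos at e13.5, with 3 arrays for each of 3 genotypes: wild type, Foxn1933/1089 and Tbx1neo2/neo2. Foxn1933/1089 embryos are compound heterozygotes with a different mutant Foxn1 allele on each chromosome, here called Foxn1 mutants. Tbx1neo2/neo2 embryos are homozygous for an allele known to lower Tbx1 expression, here called Tbx1 mutants. The other 7 arrays are wild type replicates 2 and 3, Foxn1 mutant replicates 1 and 3, and all 3 Tbx1 mutants. Total RNA was amplified, biotin-labelled and hybridised to Clariom S arrays, which read most known genes with 1 probe set (a transcript cluster) each. Whether each sample came from its own embryo or from pooled embryos is not stated.

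The thymus grows from the third pharyngeal pouch, which also gives rise to the parathyroid, and is wrapped in mesenchyme of neural crest origin. FOXN1 is the transcription factor that turns pouch epithelium into thymic epithelium. It switches on genes that draw in blood progenitors and guide them to the T lineage, among them the Notch ligand gene Dll4, the chemokine gene Ccl25 and the cortical protease genes Prss16 and Psmb11. In the mid-gestation lobe the incoming cells are early T lineage progenitors, innate lymphoid cells and some myeloid cells.

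The arrays were chosen by their measured Prss16 value, so everything that sets the Prss16-low arrays against the others is a description, without a test. Each of the 2 arrays is given by itself, against the lowest, median and highest of the other 7. A cluster is counted as low on both when both arrays lie at least 1 log2 unit (2-fold) under the lowest of the 7 and the median of the 7 exceeds the negative controls. High on both is the mirror image. By this rule 320 of 22206 clusters (1.44%) were low on both and 83 (0.374%) were high on both, and nothing is read from these shares. Of the 320, 298 carry a gene symbol. The gap was at least 4 log2 units for 28 of them, 2 to 4 for 87 and 1 to 2 for 205.

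The Prss16-low arrays correlated least with the rest. The median over all clusters lay between 5.09 and 5.20 on the 9 arrays. The median of the negative-control probes, which serves here as background, was 4.94 on wild type replicate 1, the highest of all, and 4.65 on Foxn1 mutant replicate 2, against 4.27 to 4.68 elsewhere. Wild type replicate 1 also had the lowest median of the spike-in (ERCC) control features, 4.49 against 4.90 to 5.08, and of the positive controls, 9.90 against 10.04 to 10.28. Foxn1 mutant replicate 2 lay inside both ranges, at 4.99 and 10.06. The part of these measures in the results was not tested. Across clusters the 21 pairs among the other 7 arrays had Pearson correlations of 0.980 to 0.989, both Prss16-low arrays correlated with each other at 0.972, and each with the other 7 at 0.950 to 0.978. Sample titles carry 3 date codes whose meaning is not stated. The Prss16-low arrays have different codes, and each of those codes also holds arrays with high Prss16.

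Cortical and other epithelial genes grouped as FOXN1-dependent were mostly low on both arrays, while Foxn1 itself stayed above background. Of 15 measured genes in a list of cortical and FOXN1-dependent epithelium, 10 were low on both and 13 lay under all 7 other arrays on both (12.1% of all clusters did). The median difference from the median of the 7 was -3.31 on wild type replicate 1 and -3.04 on Foxn1 mutant replicate 2 (all clusters: -0.03 and 0.01). In RNA from whole lobes, fewer cells of a type and less RNA per cell cannot be told apart.

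Prss16 read 14.43 and 13.98 on wild type replicates 2 and 3, 14.10 and 13.87 on Foxn1 mutant replicates 1 and 3, and 13.98, 14.28 and 14.05 on the Tbx1 mutants. Its 4.24 and 4.45 on the Prss16-low arrays are under their own negative-control medians. It was therefore at least 553-fold and 676-fold lower there than the median of the 7. Psmb11, the thymus-specific proteasome subunit of cortical epithelium, read 3.40 and 3.36, against a lowest, median and highest of 9.52, 10.43 and 10.66 on the others. That is at least 45.1-fold and 55.1-fold lower, again with both arrays at background. The promoter of Psmb11 is shown because GACGC, the core that FOXN1 binds, occurs in it. The 250 bases before the RefSeq start (GRCm38.p6, plus strand, chr14:54625060-54625309) are given with the 2 matches in capitals, both of which read as the reverse complement GCGTC.
Psmb11 promoter: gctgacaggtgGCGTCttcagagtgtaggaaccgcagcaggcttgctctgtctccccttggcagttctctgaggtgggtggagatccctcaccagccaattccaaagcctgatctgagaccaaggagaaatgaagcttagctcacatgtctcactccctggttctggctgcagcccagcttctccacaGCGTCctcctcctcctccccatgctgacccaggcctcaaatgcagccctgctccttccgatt
Of the 10 genes of the list that were low on both, 8 have a promoter entry, and GACGC on either strand lies within 250 bases before the start of 2 of them, Psmb11 and Kitl. The same letters occur in 24.8% of 27025 mouse promoters of that length, so the match is a description of this window only.

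The signals that epithelium gives to incoming progenitors differed in size between both arrays. Dll4, the Notch ligand that commits progenitors to the T lineage, read 6.78 on the wild type array and 8.28 on the Foxn1 mutant array, against 11.04, 11.33 and 12.06 elsewhere. Il7, the cytokine that early lymphoid cells need to survive, read 8.03 and 9.22 against 11.21, 11.68 and 11.83. For Kitl, the ligand of the progenitor receptor KIT, the values were 7.81 and 8.54 against 10.08, 10.64 and 11.03. All 3 stayed above background on both arrays, and the Foxn1 mutant array was the higher for each. The chemokine genes Ccl25 and Cxcl12 showed no such gap. Ccl25 read 5.78 and 5.67, under the 5.88 to 6.89 of all others by a small margin. Its signal was low on every array, over negative-control medians of 4.27 to 4.94. Cxcl12 read 8.34 and 9.27, inside the range of 7.43 to 9.95.

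The keratins divided. Krt5, a keratin of basal and medullary epithelium, read 8.68 and 8.50 against 12.87 to 14.14, and Krt8, a keratin of simple epithelium, 12.12 and 12.37 against 15.62 to 15.97. Krt18, the partner with which KRT8 forms filaments, read 11.48 and 11.06 against 15.25 to 15.92. Krt17 went to background on wild type replicate 1, at 4.42, and read 5.47 on Foxn1 mutant replicate 2, against 9.59 to 10.49. These 4 were the only genes low on both among 17 measured members of the Krt1 to Krt20 series, a family grouped after the values had been seen. Krt14 at 6.23 and 5.16 (5.58 to 7.35 elsewhere) and Krt15 at 6.30 and 6.55 (5.34 to 6.04) did not share the pattern. Ly75, the cortical endocytic receptor known as DEC-205, read 3.93 and 4.60 against 7.17 to 9.02, and Cd274, the gene of PD-L1, 4.92 and 3.64 against 7.89 to 8.68. Tbata, a gene of thymic stroma, read 2.97 and 2.81 against 4.81 to 6.82. The cathepsin gene Ctsl was under the others on both arrays without reaching the gap, at 9.84 and 8.59 against a median of 10.60. Cd83 was near background on all arrays.

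**Figure D1:**
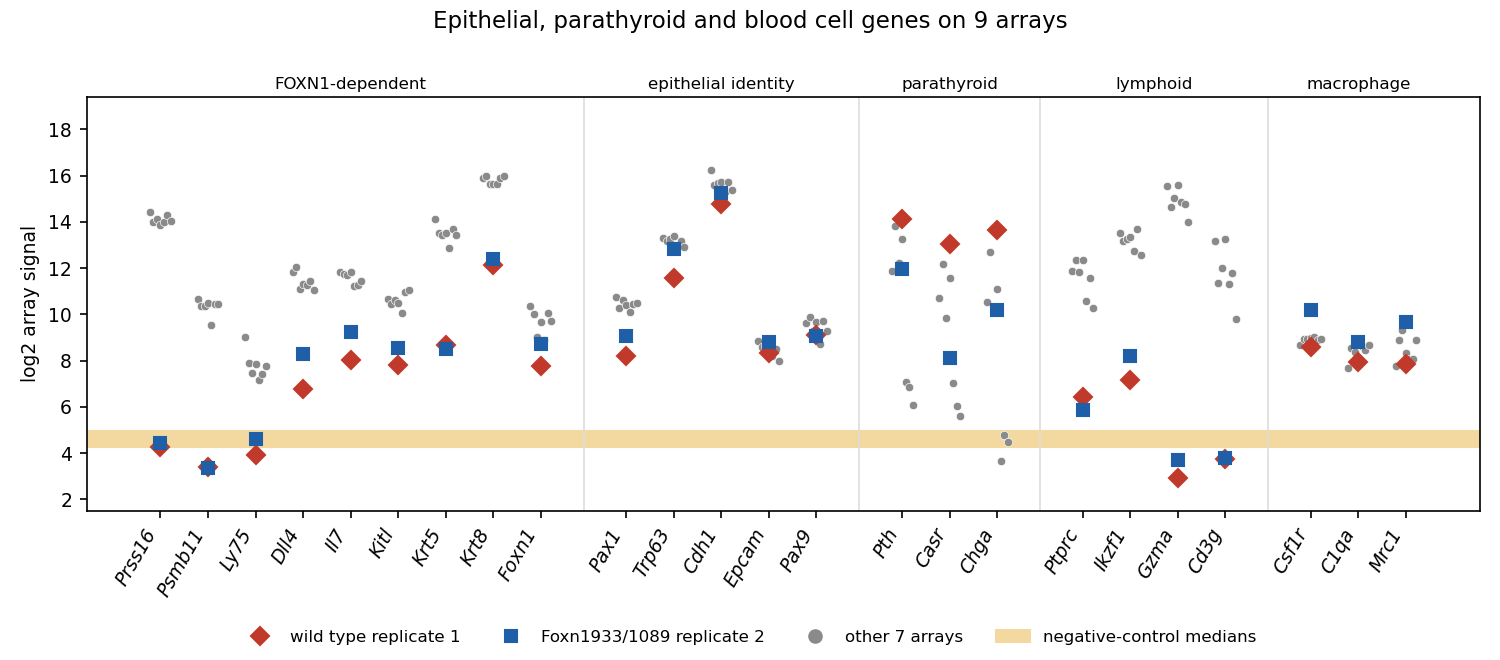
Log2 array signal of epithelial, parathyroid and blood cell genes on each of the 9 arrays, with wild type replicate 1 as red diamonds, Foxn1933/1089 replicate 2 as blue squares and the other 7 arrays as grey circles; the band spans the negative-control medians. The plotted FOXN1-dependent and lymphoid genes lie under the grey circles on both arrays, Foxn1 itself only narrowly on Foxn1933/1089 replicate 2. Epcam, Pax9 and the macrophage genes C1qa and Mrc1 lie among or near the grey circles, while Csf1r lies above them on Foxn1933/1089 replicate 2. Pth, Casr and Chga are highest on wild type replicate 1.

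Genes that mark pouch and thymic epithelium before FOXN1 acts went both ways, with 2 of 16 low on both, 4 under all 7 on both and 3 above all 7 on both. The shares of all clusters were 1.44%, 12.1% and 7.83%. Foxn1 read 7.78 on the wild type array and 8.73 on the Foxn1 mutant array, against 8.88, 9.70 and 10.35 elsewhere. Both lay under all 7, but 3.78-fold and 1.95-fold under their median. Where the Foxn1 probes fall relative to the mutations is not stated. Trp63, the p63 regulator of stratified epithelia, read 11.55 and 12.82 against 12.90 to 13.40, and the E-cadherin gene Cdh1 14.78 and 15.25 against 15.29 to 16.25. Epcam, a surface marker of epithelium, read 8.33 and 8.82 and so lay inside the range of 7.97 to 8.83. Pax9, a pouch regulator, read 9.10 and 9.05 inside 8.70 to 9.90. Pax1, another pouch regulator, was low on both at 8.17 and 9.07 against 10.09 to 10.76. Of the measured genes of this identity list only Pax1 and Krt18 were low on both, and the list medians were -0.23 and -0.08. The other 7 arrays had list medians of -0.38 to 0.22.

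Several genes of the same list were higher. Eya1, a pouch and placode regulator, read 15.40 on wild type replicate 1 and 13.04 on Foxn1 mutant replicate 2, above 11.31, 11.89 and 12.25 on the others. Bmp4, a growth factor of the ventral pouch and its mesenchyme, read 8.75 and 10.80 in the same order, against 7.83 to 8.67. For Fgf10, a mesenchymal growth factor, 6.26 and 8.26 were read against 6.24 to 7.05, so its high value was on a single array. Cldn7, an epithelial claudin, read 9.94 and 8.94, against 8.82 to 9.69 on the wild type and Foxn1 mutant arrays with high Prss16 and 7.20 to 7.98 on the Tbx1 mutants. The remaining members were Krt19 at 5.20 and 7.10 (5.95 to 8.40), Cldn4 at 9.0 and 8.58 (7.05 to 9.38), and Hoxa3, Cldn3 and Cldn6, which did not exceed 5.59 on any array.

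Of 4 measured parathyroid genes, which share the pouch origin, 0 were low on both arrays. All 4 lay above all 7 on wild type replicate 1 (19.3% of all clusters did). Pth, the parathyroid hormone gene, read 14.13, 11.89 and 13.82 on wild type, 12.22, 11.95 and 13.25 on Foxn1 mutants, and 7.06, 6.85 and 6.07 on Tbx1 mutants. The first wild type value, from the Prss16-low array, was the highest of the 9. Casr, the calcium-sensing receptor, read 13.03 on wild type replicate 1 and 8.13 on Foxn1 mutant replicate 2, and Chga, a secretory granule protein, 13.65 and 10.17. On the other wild type and Foxn1 mutant arrays Casr read 9.85 to 12.16 and Chga 10.21 to 12.68. Wild type replicate 1 therefore had the highest value of all 3 genes, and Foxn1 mutant replicate 2 the lowest Casr and Chga outside the Tbx1 mutants. Chga is also made by sympathetic neurons, whose genes were high on wild type replicate 1. Ccl21a, a chemokine of the pouch, medulla and lymphatics, read 14.57 and 11.05 against 9.49 to 13.21.

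Most pan-leukocyte genes were low on both arrays. Of 14 measured pan-leukocyte genes 11 were low on both, and the list medians were -3.49 on wild type replicate 1 and -3.68 on Foxn1 mutant replicate 2, against -0.58 to 0.38 on the other 7. Ptprc, which encodes the common leukocyte antigen CD45, read 6.44 and 5.87 against 10.26, 11.82 and 12.36. It remained above background on both arrays and was 41.6-fold and 61.9-fold under the median of the 7. Ikzf1, the Ikaros regulator of lymphoid fate, read 7.15 and 8.17 against 12.56, 13.25 and 13.68, and the leukocyte signalling gene Rac2 6.60 and 8.11 against 11.74, 12.97 and 13.24. Lcp1, a leukocyte actin-bundling protein, read 11.48 and 12.29 against 14.95 to 16.07. The myeloid and lymphoid regulator Spi1, which encodes PU.1, read 8.80 and 9.50 against 11.06 to 12.24. Coro1a, Laptm5, Ptpn6, Vav1, Itgal and Arhgdib were the other members low on both. Cd53 and Lcp2 lay under all 7 on both arrays with smaller gaps, and Cd52 was near background on all 9.

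Of those 11 genes 8 have a promoter entry, and GAGGAAGT, a purine-rich core that PU.1 binds, was found on either strand in 1 of them, Vav1, a guanine nucleotide exchange factor of lymphocyte receptors. The motif occurs in 2.79% of all mouse promoters of that length. Vav1 read 6.13 and 6.25 against 9.96, 10.42 and 11.04. Its promoter is printed because it holds this site close to the start (GRCm38.p6, plus strand, chr17:57278850-57279099, with the motif in capitals).
Vav1 promoter: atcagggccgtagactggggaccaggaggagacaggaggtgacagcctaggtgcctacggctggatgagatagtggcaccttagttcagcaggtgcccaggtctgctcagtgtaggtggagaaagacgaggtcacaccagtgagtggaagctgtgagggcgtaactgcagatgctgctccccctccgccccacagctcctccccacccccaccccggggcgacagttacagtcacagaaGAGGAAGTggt

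Genes of cytotoxic and early T cells were among those with the widest gaps, and Gzma had the widest of all. Gzma, the granzyme A protease of innate and cytotoxic lymphocytes, read 15.54 and 14.64 on wild type replicates 2 and 3, 15.04 and 15.58 on Foxn1 mutant replicates 1 and 3, and 14.84, 14.75 and 13.97 on the Tbx1 mutants. On the Prss16-low arrays it read 2.91 and 3.69, under background, and so was at least 959-fold and 1173-fold lower. Gzmb, the granzyme B gene, read 4.02 and 3.63 against 10.01, 10.84 and 12.02. Cd3g, the gamma chain of the T cell receptor complex, read 3.73 and 3.79 against 9.79, 11.80 and 13.25. Tespa1, which acts in T cell receptor signalling of thymocytes, read 4.27 and 3.78 against 10.42, 11.57 and 12.07. All 4 were under their array's negative-control median on both Prss16-low arrays, so the differences are lower bounds.

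The T lineage list was mixed. Of 18 measured genes, 12 lay under all 7 on both arrays (12.1% of all clusters did). Of these 12, 5 were low on both: Cd3g, Cd3d, Cd3e, the adaptor Lat and the interleukin 7 receptor gene Il7r. Il7r read 3.12 and 3.25 against 6.55 to 7.92, and Cd3d 2.74 and 2.97 against 7.0 to 9.07. Bcl11b, a T lineage commitment factor, read 5.02 and 5.15 inside 4.63 to 5.79, Dntt was under background everywhere and Cd2 near it. The list medians were -1.10 and -1.01 against -0.54 to 0.66 on the others. In the innate lymphoid and natural killer list 3 of 15 were low on both, Gzma, Gzmb and the cytotoxic granule gene Nkg7 (4.31 and 3.38 against 7.69 to 9.26). Id2, a regulator of innate lymphoid cells that many other tissues express, read 12.05 and 13.35 against 11.07 to 12.15. Among 22 adaptors and kinases of T and natural killer cells, a list gathered after the values were seen, 18 were low on both. Fyn, which is expressed far beyond lymphocytes, was not, at 8.89 and 8.62 against 8.59 to 9.39.

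In the early progenitor list 2 of 11 genes were low on both arrays, and in the mast cell and granulocyte list 2 of 14 (1.44% of all clusters were). Some of the list medians were lower than on the other 7. The early progenitor median was -0.9973 on wild type replicate 1, under the -0.1761 to 0.2076 of the other 7. On Foxn1 mutant replicate 2 that median was -0.1045, inside this range. Of the 11 early progenitor genes, 8 lay under all 7 on wild type replicate 1 and 4 on Foxn1 mutant replicate 2, as did 5387 and 4354 of 22206 clusters. Kit, the receptor of early progenitors and mast cells, read 12.20 and 11.01 against 13.56, 14.00 and 14.73, and Lyl1, a progenitor regulator, 7.51 and 6.64 against 8.62 to 9.82. These were the 2 of 11 early progenitor genes that were low on both. Cd34, which endothelium also makes, read 10.75 on wild type replicate 1 and 12.72 on Foxn1 mutant replicate 2, against 12.61 to 13.67. Myb, needed by blood progenitors, read 6.35 and 5.33 against 11.14 to 12.59. Mpo, the myeloperoxidase of granulocyte precursors, read 5.05 and 4.89 against 9.27 to 11.06, and Cpa3, a protease of mast cells and early progenitors, 3.94 and 4.28 against 8.46 to 10.46. Mpo and Cpa3 were the only genes low on both among 14 of a mast cell and granulocyte list drawn up after the values were seen. The medians of that list were -0.0676 on wild type replicate 1 and -0.2964 on Foxn1 mutant replicate 2. Both lay under the -0.0148 to 0.1426 of the other 7. Elane, Prtn3, Mcpt4 and Mcpt8 were near background on every array.

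No macrophage, red cell or endothelial gene of the lists was low on both, although the macrophage list medians had opposite signs on the 2 arrays. Of 15 macrophage genes 0 were low on both. The list medians were -0.37 on wild type replicate 1 and 0.37 on Foxn1 mutant replicate 2, against -0.24 to 0.29 on the others. On wild type replicate 1, 5 genes lay under all 7, as did 5387 of 22206 clusters. On Foxn1 mutant replicate 2, 7 genes lay above all 7, as did 19.1% of all clusters. Csf1r, the receptor that macrophages need, read 8.59 and 10.20 against 8.67, 8.93 and 9.04. The complement gene C1qa read 7.94 and 8.81 against 7.68 to 8.72, and the mannose receptor gene Mrc1 7.86 and 9.65 against 7.76 to 9.34. Foxn1 mutant replicate 2 thus had the highest value of all 3 genes. Tyrobp, an adaptor that natural killer cells share with macrophages, was the member under all 7 on both arrays, at 7.04 and 7.92 against 8.53 to 10.18. Embryonic globin Hbb-bh1 read 13.86 and 12.25 against 9.82 to 14.68, and 0 of 8 red cell genes were low on both. Of 14 endothelial genes 0 were low on both, with list medians of 0.08 and 0.17 against -0.40 to 0.25 on the others. Cdh5, the cadherin of endothelium, read 11.40 and 11.92 against 10.65 to 11.27, and Pecam1, which leukocytes also carry, 7.10 and 8.63 against 8.69 to 9.06. Pecam1 and Erg, an ETS regulator of endothelium and blood progenitors (4.80 and 5.68 against 6.21 to 7.85), were the 2 members under all 7 on both arrays.

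Part of the antigen presentation genes were low on both arrays, 3 of 8 in the MHC class II list and 4 of 9 in the class I and immunoproteasome list. H2-Ab1, a chain of MHC class II, read 6.41 and 6.76 against 10.16, 10.77 and 11.49. H2-Aa and H2-Eb1, which lie next to it on chromosome 17, were low on both as well. Psmb9, an immunoproteasome subunit, read 3.71 and 3.64, under background, against 9.35 to 11.87. Its partners Psmb8 (4.61 and 5.26 against 7.62 to 9.78) and Psmb10 (4.31 and 4.38 against 8.07 to 9.43) were also low on both. Tap1, which pumps peptides toward MHC class I, read 5.35 and 5.21 against 6.63 to 8.01. The class I genes themselves were not low on both: B2m, the light chain, read 13.10 and 12.51 against 12.39 to 13.55, and H2-K1 read 9.86 and 8.57 against 9.29 to 11.36.

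Psmb9 and Tap1 are head-to-head neighbours that share the stretch between their starts. It is shown (GRCm38.p6, chr17:34187331-34187555, plus strand) with the single match to GGGCGG, a GC box, in capitals; it reads CCGCCC on this strand. The motif was chosen after the values were seen and occurs in 35.4% of promoters.
Psmb9 to Tap1: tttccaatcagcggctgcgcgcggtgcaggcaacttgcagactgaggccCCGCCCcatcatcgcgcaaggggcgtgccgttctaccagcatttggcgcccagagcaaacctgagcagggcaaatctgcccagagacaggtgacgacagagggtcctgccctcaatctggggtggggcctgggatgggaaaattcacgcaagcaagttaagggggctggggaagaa
Other low genes were neighbours too. Among the 298 named genes, 31 formed 17 adjacent pairs in the order of measured genes, including Krt8 with Krt18, the Cd3g, Cd3d and Cd3e run, Ifitm1 with Ifitm3, and Plgrkt with Cd274.

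Interferon-induced genes were low for part of a list of 22 made after the values were seen: 10 were low on both. Ifitm1, a membrane protein that restricts viral entry, read 9.49 and 10.76 against 15.78, 16.68 and 17.09, which is 146-fold and 60.7-fold under the median without reaching background. Apobec3, a cytidine deaminase gene, read 7.64 and 9.07 against 13.39 to 14.62. The classical responders Isg15, Ifit1, Mx1 and Oas1a lay within 1 log2 unit of background or under it on all arrays. Further genes with wide gaps were the lymphocyte tetraspanin gene Cd37 (4.69 and 4.53 against 9.66 to 11.91), the leukocyte adhesion gene Parvg (3.70 and 4.68 against 9.68 to 11.24), the flippase gene Atp8b4, the aldo-keto reductase gene Akr1c13, Fam169b, and Crip3, a LIM protein gene of thymus (3.13 and 3.53 against 8.18 to 9.02).

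A smaller shift reached genes of growth and metabolism. Of 17 cell cycle genes 0 were low on both, but 12 lay under all 7 on both arrays (12.1% of all clusters did). The list medians were -0.64 and -0.69, against -0.18 to 0.15 on the other 7. Mcm3, a helicase subunit of DNA replication, read 11.40 and 11.17 against 11.82, 12.49 and 12.88. Mki67, by contrast, was the highest of all on wild type replicate 1 at 15.90 and the lowest at 15.25 on Foxn1 mutant replicate 2. Of 19 genes of nucleotide and one-carbon synthesis, grouped after the values were seen, 6 were low on both: the purine enzyme genes Ppat and Gart, the pyrimidine genes Umps and Uck2, and Shmt1 and Psat1 of serine metabolism. Umps read 8.53 and 9.11 against 10.28 to 11.29. The housekeeping list medians were -0.36 and -0.18 against -0.08 to 0.18 on the others. Under all 7 were 6 and 5 of 11 genes, as were 5387 and 4354 of 22206 clusters. Hprt (9.77 and 10.63 against 11.66 to 12.34) and Pgk1 were low on both, whereas Actb and Eef1a1 stayed within 0.10 of the median of the 7 and Gapdh within 0.18.

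**Figure D2:**
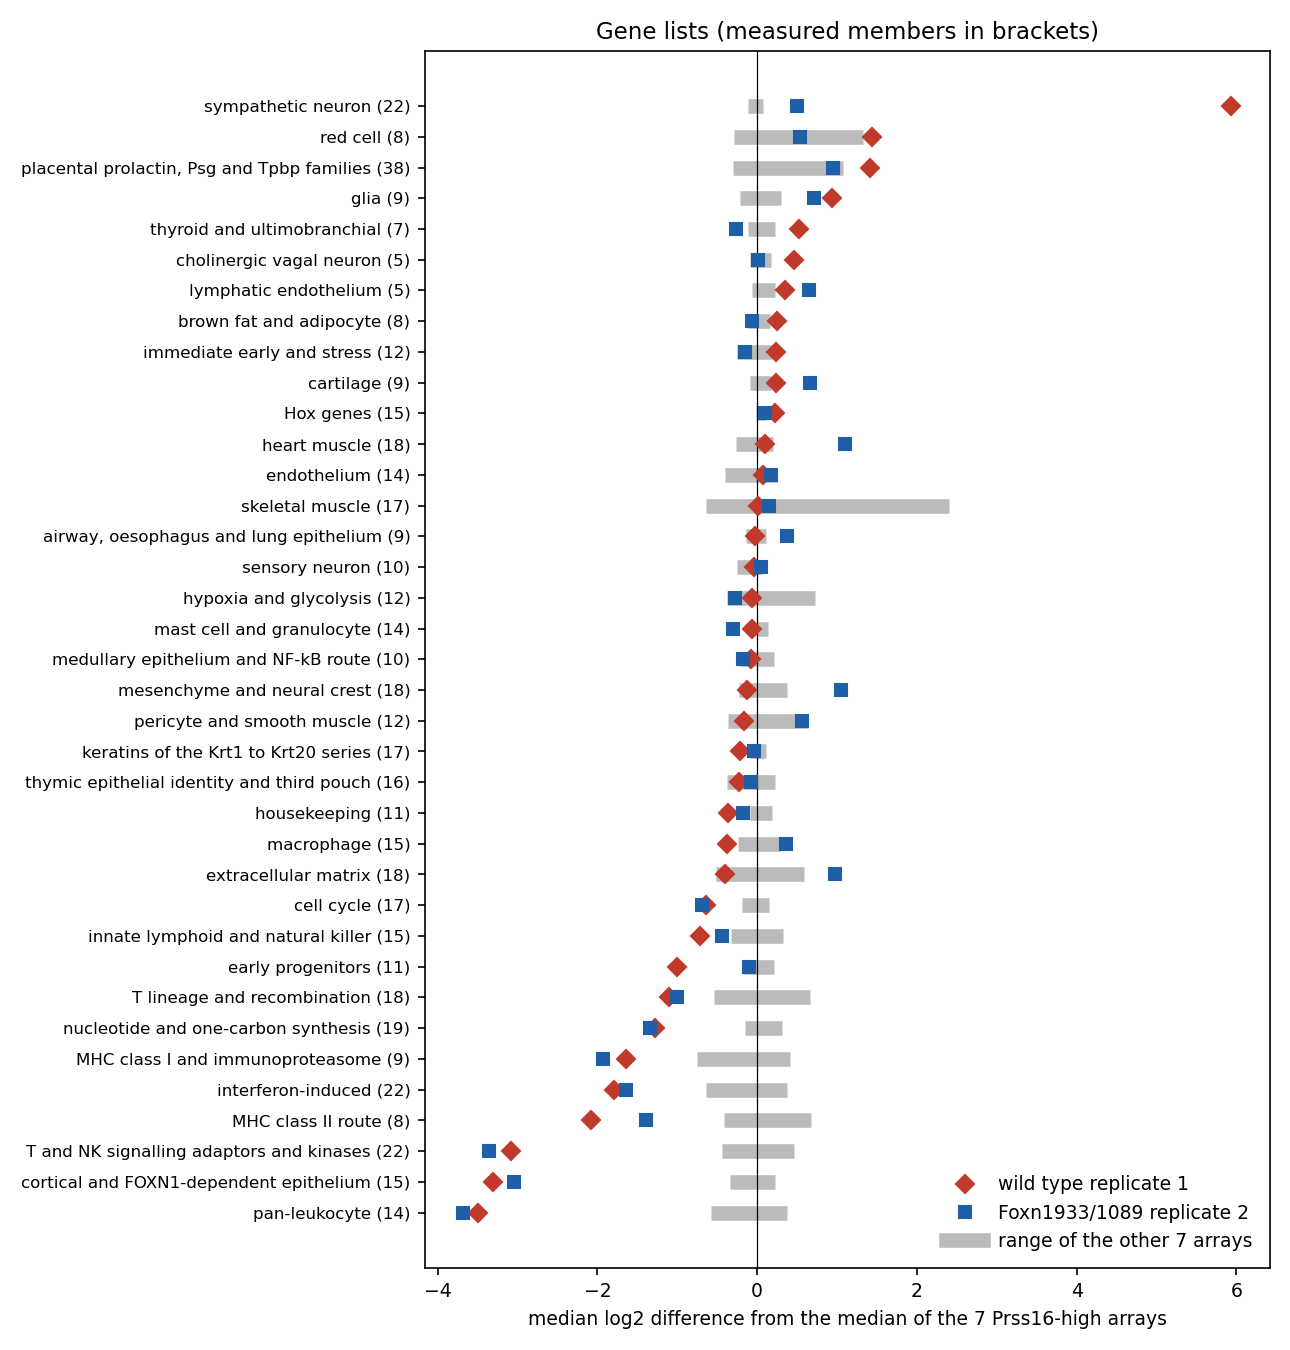
Median log2 difference of each gene list with at least 5 measured members from the median of the 7 Prss16-high arrays, for wild type replicate 1 (red diamonds) and Foxn1933/1089 replicate 2 (blue squares); grey bars span the same median on the other 7 arrays, and the number of measured members is in brackets. Pan-leukocyte, FOXN1-dependent, and T and natural killer signalling lists are lowest on both arrays. The sympathetic neuron list is 5.94 on wild type replicate 1 and 0.50 on Foxn1933/1089 replicate 2.

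What the arrays had in excess differed between them. Wild type replicate 1 alone was at least 1 log2 unit above the highest of the other 8 for 514 clusters (2.31%), and Foxn1 mutant replicate 2 alone for 104 (0.468%). The other 7 arrays had 6 to 145 such clusters, with the 145 (0.653%) on wild type replicate 2. The counts of the Prss16-low arrays include clusters that were also high on both, such as Rtn1 for wild type replicate 1 and Fam107a for Foxn1 mutant replicate 2.

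Sympathetic neuron genes were high on wild type replicate 1. All 22 measured genes of that list lay above all 7 there (19.3% of all clusters did), and 12 did on Foxn1 mutant replicate 2 (19.1%). The list medians were 5.94 and 0.50. Th, the first enzyme of catecholamine synthesis, read 12.44 there against 2.56 to 4.07 on all other arrays. Dbh, which makes noradrenaline, read 12.04 against at most 3.47. Chrna3, a nicotinic receptor subunit of autonomic ganglia, read 13.64 against at most 4.83, and Slc6a2, the noradrenaline transporter, 9.74 against at most 4.33. Except for the 4.83 of Chrna3 on Foxn1 mutant replicate 2, these 4 genes were at or under background on all other arrays. The regulators Gata2 (9.49), Hand2 (7.35) and Tfap2b (11.46) and the peptide genes Npy (9.64) and Cartpt (14.06) were likewise highest there. Pan-neuronal genes had wide gaps too. Ina, an intermediate filament, had the widest of the named clusters high on this array alone, at 13.28 against at most 4.43. The RNA-binding gene Elavl3 read 12.40 against at most 4.59, and Gap43, a growth cone protein, 15.93 against at most 9.37. Prox1, a regulator of lymphatic endothelium and of neurons, read 10.77 against 4.61 to 6.32.

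On wild type replicate 1 the sensory and cholinergic lists had smaller medians than the sympathetic list. The sensory markers Neurog1, Neurog2, Pou4f1 and Avil were under background on wild type replicate 1, and the sensory list medians were -0.04 and 0.05 against -0.25 to 0.06 on the others. Runx1 and Runx3 of that list were low on both arrays, but both genes also act in T cells and other leukocytes; Runx3 read 4.29 and 4.49 against 8.25 to 10.26. The cholinergic list medians were 0.47 and 0.01 against -0.09 to 0.18, and 3 of its 5 genes lay above all 7 on wild type replicate 1 (19.3% of all clusters did). Of these Chat and Slc5a7 were under background there, and Slc18a3, the acetylcholine transporter, read 5.26 on wild type replicate 1 against at most 2.60. The acetylcholinesterase gene Ache, which blood cells also express, was low on both at 5.41 and 3.90 against 7.0 to 8.84.

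Foxn1 mutant replicate 2 stood out for some heart genes and for connective tissue genes. Myl7, an atrial myosin light chain, read 10.71 there, 4.19 on wild type replicate 1, and 3.55, 4.66 and 6.53 as the lowest, median and highest of the other 7. Nppa, the atrial natriuretic peptide gene, read 7.55 against at most 3.37, and Myh6, the alpha cardiac myosin, 5.96 against at most 4.00. On the other 8 arrays Nppa and Myh6 were under background. The cardiac regulator Nkx2-5 was under background on all 9 arrays, including this one, and Gata4 was highest at 8.21 on Tbx1 mutant replicate 3. Of 18 heart muscle genes 7 were above all 7 on Foxn1 mutant replicate 2 (19.1% of all clusters were). On wild type replicate 1 the count was 6 (19.3%), and 5 were above all 7 on both (7.83%). The list medians were 1.10 on Foxn1 mutant replicate 2 and 0.09 on wild type replicate 1, against -0.26 to 0.20 on the others. Skeletal muscle genes were highest on wild type replicate 2, not on a Prss16-low array: Myh3 read 13.99 there, 8.12 on wild type replicate 1 and 9.94 on Foxn1 mutant replicate 2.

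Mesenchyme and matrix genes were higher on Foxn1 mutant replicate 2 and unremarkable on wild type replicate 1. Of 18 mesenchyme and neural crest genes 11 were above all 7 on the Foxn1 mutant array (19.1% of all clusters were) and 1 on the wild type array (19.3%). The list medians were 1.04 and -0.12 in the same order. Prrx1, a limb and head mesenchyme regulator, read 13.37 and 11.98 on these arrays, against 10.81, 11.54 and 12.12. Osr1, a regulator of lateral and foregut mesenchyme, read 12.62 and 10.68 against 9.39 to 11.31. Sox9, which directs cartilage and several epithelia, read 9.37 and 7.13 against 6.35 to 7.27, while its cartilage target Col2a1 was under background on both arrays. Of 18 matrix genes 11 were above all 7 on Foxn1 mutant replicate 2 (19.1% of all clusters were) and 1 on wild type replicate 1 (19.3%). The list medians were 0.98 and -0.40 in the same order. Lum, the proteoglycan lumican, read 16.51 and 14.69 against 14.45 to 15.61, and Postn, periostin, 15.23 and 13.94 against 13.17 to 14.82. Eln, the elastin gene, was at 10.80 on Foxn1 mutant replicate 2, exceeded by 12.91 on Tbx1 mutant replicate 1. Pdgfrb, a receptor of perivascular cells, was instead low on wild type replicate 1, at 10.64 against 12.52 on Foxn1 mutant replicate 2 and 12.72 to 13.53 on the others.

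Genes high on both arrays were fewer, and most were higher on wild type replicate 1 (64 of 83). The widest gap was that of Fam107a, an actin-associated gene of nervous tissue and other organs. It read 13.44 on wild type replicate 1 and 15.56 on Foxn1 mutant replicate 2, against 7.72, 8.34 and 8.79. Glial genes followed, with Fabp7, a fatty acid binding protein of glial precursors, at 13.22 and 8.40 against 3.57 to 5.46, and Sox10, the regulator of neural crest glia, at 7.57 and 7.04 against 4.02 to 5.86. These were the 2 of 9 glial genes high on both. Rtn1 (14.31 and 7.46 against 3.17 to 4.81), Uchl1 (15.11 and 10.93 against 8.05 to 9.22), L1cam and Cnr1 are neuronal genes of the same class. Atp1b1, a sodium pump subunit, read 11.84 and 12.85 against 8.50 to 9.95. The early response gene Jun was high on both (7.80 and 8.57 against 5.35 to 6.59), while Fos was under background on all arrays and Egr1 read 4.81 and 5.50 against 5.38 to 6.78.

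Many placental genes read higher on 1 or both of the Prss16-low arrays, and some were high elsewhere too. Of 38 genes of the placental prolactin, Psg and Tpbp families, grouped after the values were seen, 5 were high on both by the rule of 1 log2 unit. With any gap, 27 were above all 7 on wild type replicate 1, 16 on Foxn1 mutant replicate 2 and 13 on both (7.83% of all clusters were above all 7 on both). Tpbpa, a marker of spongiotrophoblast, read 12.28 and 10.56 against 3.12, 6.72 and 9.01. Prl7a2, a placental prolactin, read 10.92 and 10.79 against 3.47, 6.88 and 8.37. The next highest value of both genes was on wild type replicate 2. Prl8a2, the decidual prolactin, was highest on that array at 17.32, with 12.43 and 13.56 on the Prss16-low arrays and 4.43 to 12.58 on the remaining 6. Members of these families are close copies, so probes may read more than 1 of them.

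**Figure D3:**
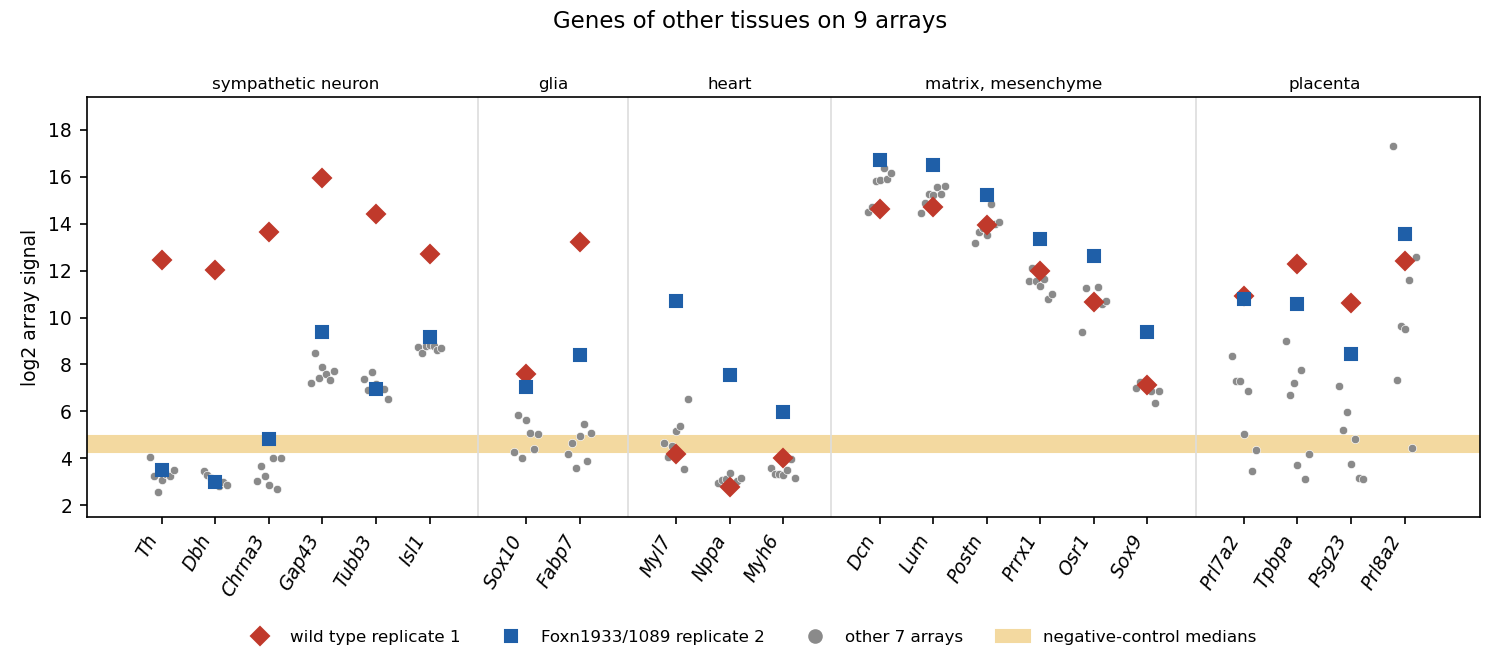
Log2 array signal of genes of neurons, glia, heart, mesenchyme and placenta on each of the 9 arrays, with the symbols and background band of the marker plot. Sympathetic genes are high on wild type replicate 1, heart and mesenchyme genes on Foxn1933/1089 replicate 2, and glial and most placental genes on both; Prl8a2 is highest on a Prss16-high array.

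Some genes were low on a single array. By this rule wild type replicate 1 was low for 224 clusters (1.01%). They were led by the carbonyl reductase gene Cbr2 (5.90 against 8.30 to 9.95) and included Eya2 (9.55 against 11.59 to 13.33), a relative of the high Eya1. By the same rule Foxn1 mutant replicate 2 was low for 77 (0.347%). Among them were Snap91, a synaptic clathrin adaptor (6.01, against 7.98 to 8.82 on the 7 and 12.29 on wild type replicate 1), the kinase gene Pim1 (6.19 against 8.11 to 9.24) and the cell cycle inhibitor gene Cdkn1a (9.52 against 11.25 to 13.25). The proteoglycan gene Srgn of granulated blood cells read 9.92 on wild type replicate 1, the highest of all, and 6.46 on Foxn1 mutant replicate 2, the lowest.

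The medians of the remaining lists, given for the wild type array first, lay partly inside and partly outside the range of the other 7. Inside that range on both arrays were medullary epithelium (-0.07 and -0.18), where Aire was under background on all arrays, pericytes and smooth muscle (-0.17 and 0.56), and hypoxia and glycolysis (-0.06 and -0.27). Above it on both arrays were lymphatic endothelium, at 0.34 and 0.64 against -0.07 to 0.22, and cartilage, at 0.23 and 0.66 against -0.08 to 0.17. The thyroid list was at 0.52 and -0.27 against -0.11 to 0.22, above the range on the wild type array and under it on the Foxn1 mutant array. The airway and foregut list was above it on the Foxn1 mutant array alone, at -0.02 and 0.37 against -0.14 to 0.11. On the wild type array alone the fat list (0.24 and -0.06 against -0.11 to 0.16), the stress list (0.24 and -0.15 against -0.25 to 0.19) and the Hox list (0.22 and 0.10 against -0.02 to 0.11) were above it. Within the hypoxia list 5 of 12 genes lay under all 7 on both arrays (12.1% of all clusters did) and 0 above all 7 on both (7.83%). Its member Adm, a vasoactive peptide gene, read 11.62 on wild type replicate 1 and 8.14 on Foxn1 mutant replicate 2, against 7.76 to 9.97. The 3 measured Y-linked genes averaged 5.47 on wild type replicate 1 and 2.74 on Foxn1 mutant replicate 2, against 2.58 to 6.14 on the others. The part of this difference in the results was not tested.

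The pattern could also be read without any shared array, by setting each Prss16-low array against the other arrays of its own genotype. Wild type replicate 1 minus the mean of wild type replicates 2 and 3 was compared with Foxn1 mutant replicate 2 minus the mean of Foxn1 mutant replicates 1 and 3. Across 22206 clusters, which are not independent, the 2 differences had a Pearson correlation of 0.576 and a Spearman correlation of 0.447. Without the clusters counted as low or high on both, Pearson's r was 0.429. Lower by at least 2 log2 units were 470 clusters on wild type replicate 1 and 327 on Foxn1 mutant replicate 2, and 240 were shared, which is 51.1% and 73.4% of these lists. Higher by at least 2 were 500 and 187, with 63 shared, or 12.6% and 33.7%. The shared part was thus larger among low genes than among high genes. Although no array is shared, a date code is subtracted in both differences. Both Foxn1 mutant arrays with high Prss16 carry the same code as wild type replicate 2. What that code adds to the correlations and to the shared clusters was not tested.

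**Figure D4:**
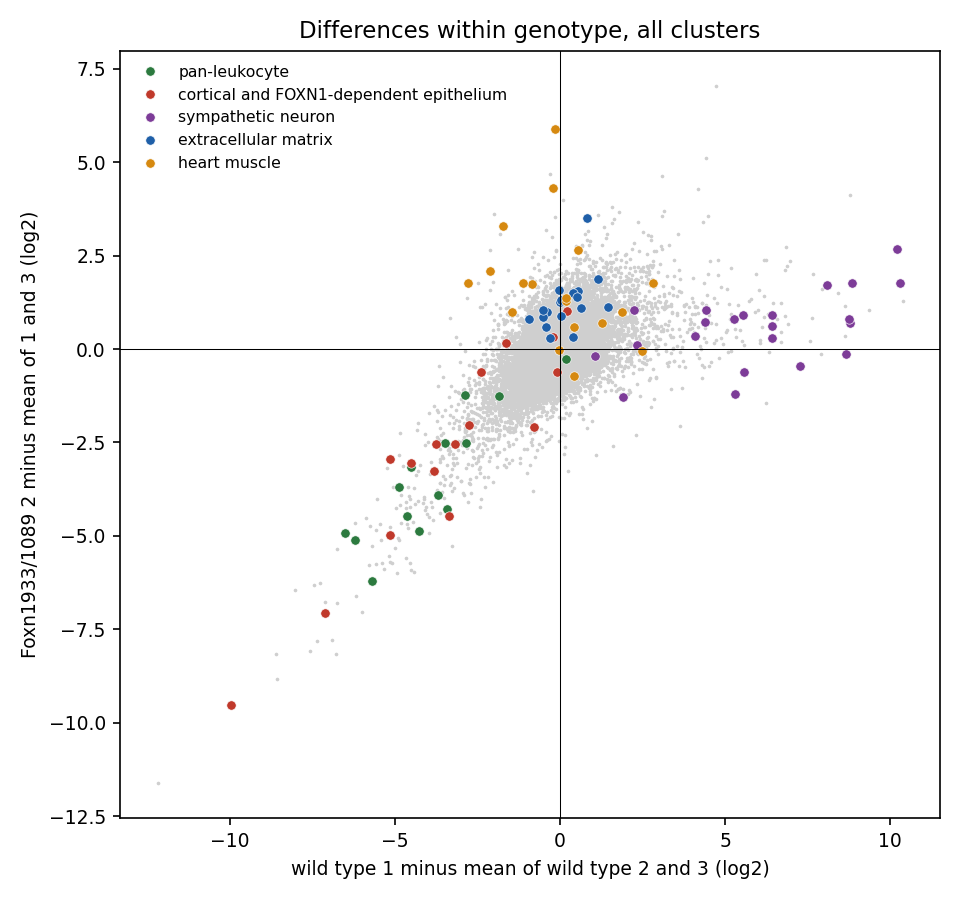
Each point is 1 of 22206 transcript clusters; the axes give the log2 difference of wild type replicate 1 from the mean of wild type replicates 2 and 3, and of Foxn1933/1089 replicate 2 from the mean of Foxn1933/1089 replicates 1 and 3. Pan-leukocyte and FOXN1-dependent genes run down the diagonal at the lower left, sympathetic genes extend to the right alone, and heart and matrix genes upward.

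Genotypes were compared with and without the Prss16-low arrays. The residual SD within genotypes, as a median over all clusters, was 0.347 with all 9 arrays and 0.282 with the 7 others. Over the 320 low clusters it was 1.40 and 0.317, a change that the choice of these clusters fixes and that is given as a description of the spread each fit works with.

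With limma and Benjamini-Hochberg adjustment, 0 of 22206 clusters (0%) were called between Foxn1 mutants and wild type with 9 arrays and 0 (0%) with 7, where the genotypes had 2 arrays each. The lowest adjusted p was 1.00 and 0.870, and 898 and 1247 clusters had an unadjusted p under 0.05. Between Tbx1 mutants and wild type 3 (0.0135%) were called with 9 arrays, Chga, Pth and Cldn7, and 2 (0.00901%) with 7, Chga and Pth. All of these fell. The log2 difference of Chga with 7 arrays was -7.29 ± 0.61 (SE; limma adjusted p = 0.0279), where all Tbx1 mutants read 3.68 to 4.78, near background. That of Pth was -6.20 ± 0.57 (limma adjusted p = 0.0310), and Cldn7 was at -2.05 ± 0.26 (limma adjusted p = 0.0881). Of the 320 low clusters 0 were called in any of these fits.

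The low genes had no settled direction between the Foxn1 mutants with high Prss16 and wild type. With 7 arrays the median difference of the 320 was -0.05 (all clusters: 0.00), 184 were lower, and 18 had an unadjusted p under 0.05 (5.62% of both the 320 and all clusters). Both Foxn1 mutants lay under both wild type arrays for 72 (22.5%), against 17.1% of all clusters. The median was 0.08 without Foxn1 mutant replicate 1 and -0.23 without replicate 3. Psmb11 was at -0.08 ± 0.34, Ptprc at -0.04 ± 0.43 and Foxn1 at -0.84 ± 0.39 (SE; limma adjusted p = 0.870 for Foxn1). Dll4 was at -0.72 ± 0.24 (limma adjusted p = 0.870).

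The Tbx1 mutants were lower than wild type in most of the low genes once the Prss16-low wild type array was set aside, and no single gene passed the test. With 7 arrays the median difference of the 320 was -0.49 (all clusters: -0.01), 287 were lower, and 107 (33.4%) had an unadjusted p under 0.05, against 8.07% of all clusters. All 3 Tbx1 mutants lay under both wild type arrays for 153 (47.8%), against 13.6% of all clusters. With 9 arrays the median was 0.51 and 22 were lower, since wild type replicate 1 then counts as wild type. The members share cell types and arrays, are not independent and were chosen from these same arrays. Their choice also required signal above the negative controls, whereas only 14725 of 22206 clusters exceeded background on any array. The shares of all clusters are therefore not matched for signal, and setting them beside the 320 is a description without a test. Within the single date code that holds a Prss16-high array of both genotypes (1 array each) the median was -0.51. The leukocyte genes Cd37 (-1.69 ± 0.30, limma adjusted p = 0.227), Itgal (-1.21 ± 0.23, limma adjusted p = 0.268) and Ptprc (-1.32 ± 0.39, limma adjusted p = 0.432) were among the larger differences. Tespa1 was at -1.14 ± 0.24 (limma adjusted p = 0.301). For epithelial genes Psmb11 was at -0.38 ± 0.31, Krt5 at -0.48 ± 0.30 and Kitl at 0.13 ± 0.31 (SE). Whether epithelial and leukocyte genes differed from each other in this was not tested.

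**Figure D5:**
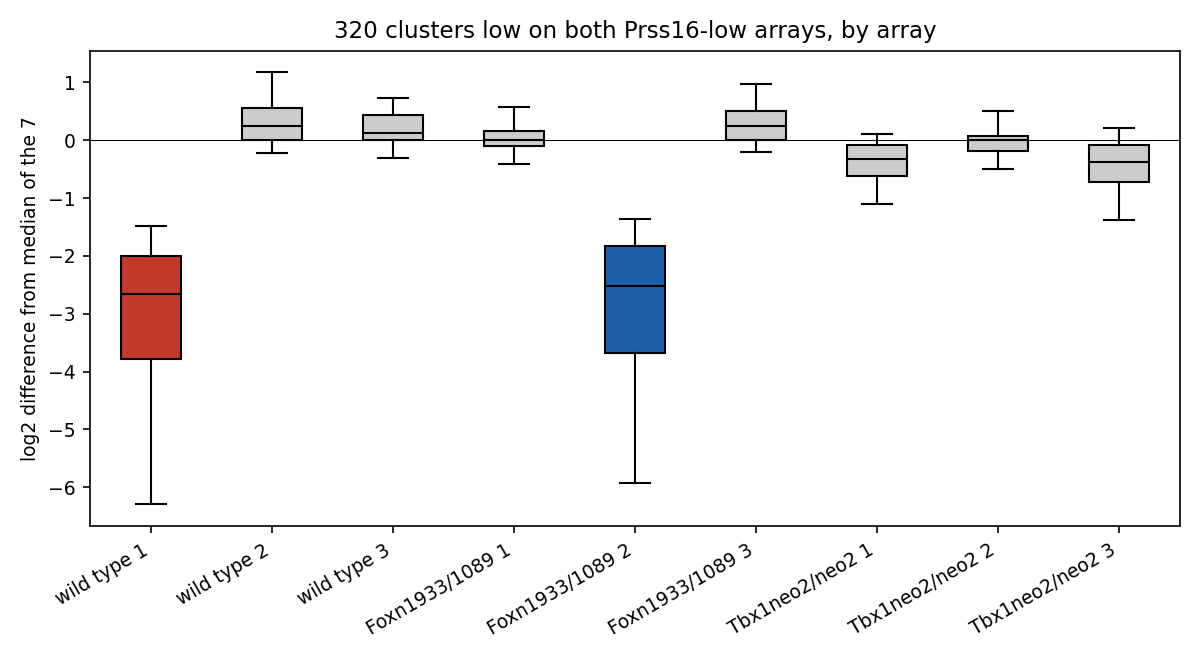
Log2 difference from the median of the 7 Prss16-high arrays for the 320 clusters low on both Prss16-low arrays, by array; boxes span the quartiles with the median as a line, and whiskers reach the 5th and 95th percentiles. Medians are -2.66 on wild type replicate 1 and -2.51 on Foxn1933/1089 replicate 2, where the choice of clusters fixes them, 0.25 and 0.12 on the other wild type arrays, and -0.32, 0.00 and -0.37 on the Tbx1neo2/neo2 arrays.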

How the data were processed

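The authors deposited log2 values for 28846 features on 9 Clariom S arrays. They run from 1.47 to 19.92 and were used as given. Software, normalization and build: not given in the sources used here. After 6640 control features (5222 of them negative controls) were left out, 22206 clusters remained, 19572 with a symbol and 2634 without; 142 repeat the values of another cluster.

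Genotypes came from the labels. Replicate numbers follow accession order and pair nothing. The 2 Prss16-low arrays were chosen by Prss16 under 6. Members and gene lists were chosen with earlier results of these data known. Differences are from the median of the 7 other arrays. Where a value lay under its array's negative-control median, that median replaced it to give an "at least" fold. Genotypes were compared with limma 3.58.1 in R 4.3.3, all arrays sharing 1 spread, with a two-sided adjusted p of 0.05. The p-values therefore reflect the spread among these samples, which may be technical, and precision is limited by the number of arrays. Named genes were the targeted and marker genes, the widest gaps in each class, and the largest and smallest differences in each list, with every member of the epithelial and parathyroid lists. Other named genes were chosen after their values were seen. Promoters came from RefSeq (GRCm38.p6); motifs were sought on both strands. The counting rules and the fit were tested on simulated data. Alternatives covered normalization, filters, the gap, date codes, array weights and leaving out arrays. Figures used matplotlib 3.10.9 in Python 3.11.15.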

Additional observations from a re-analysis of the deposited data

How the results depend on the processing

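The counts of shared clusters follow the gap: with any gap above 0 they were 2339 low and 1273 high, and with a gap of at least 2 they were 115 and 7. With that gap, wild type replicate 1 alone was high for 215 clusters and Foxn1933/1089 replicate 2 alone for 9. Leaving out each other array gave 324 to 365 low on both, 85 to 112 high on both, 520 to 676 high on wild type replicate 1 alone and 107 to 242 high on Foxn1933/1089 replicate 2 alone. The 242 came without wild type replicate 1 and 160 without Tbx1neo2/neo2 replicate 1; fewer arrays to exceed can only raise these counts. Quantile normalization gave 313 low and 102 high, and median centring 331 and 77. Between Foxn1933/1089 and wild type, leaving out each array gave 0 to 3 called clusters, with 3 without Tbx1neo2/neo2 replicate 1. Between Tbx1neo2/neo2 and wild type the range was 0 to 20, with 20 without wild type replicate 2, 5 without Tbx1neo2/neo2 replicate 1 and 0 without wild type replicate 3 or Tbx1neo2/neo2 replicate 2 or 3. The date code as a block gave 1 and array weights 17; the cause was not tested. The median of the 320 clusters in that comparison turned from 0.51 to -0.49 without both Prss16-low arrays, an alternative added after seeing the data. Leaving out a further array gave -0.44 and -0.56 without wild type replicates 2 and 3, -0.49 without either Foxn1933/1089 array, and -0.44, -0.64 and -0.42 without Tbx1neo2/neo2 replicates 1, 2 and 3. Against the 2 other arrays of the same genotype, 48 list medians moved by less than the spread of the 7 arrays, 29 by more, and the Y-linked list turned on wild type replicate 1 from 2.78 to -0.56. No paired analysis was possible because the labels give no replicate numbers; the date codes that genotypes share were used as a block (above) and for differences within a code.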
